A study of Mus musculus with 36 samples.

Results

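The amyloid precursor protein gene App, its relatives Aplp1 and Aplp2, and 4 genes of the enzymes that cut their products (Bace1, Adam10, Psen2 and Ncstn) were examined in ribosome-protected fragments (RPFs) and RNA of mouse brain. These 7 genes are the rows of the count table whose gene name is one of those 7 names, of 16614 genes in the table. In the standard preparation, ribosome footprints of App and Aplp2 in the sucrose gradient pellet were high relative to the level of their RNA, which was not found in the low nuclease preparation. Those of Bace1 were low in both preparations. In standard pellets those of Aplp1, Adam10 and Psen2 did not pass the main test against RNA, and they were called lower under another scaling. The ratio of App to Aplp2 varied little over the libraries, and no difference between FMR1 KO and WT was detected for any of the 7 genes.

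APP and its relatives APLP1 and APLP2 are transmembrane proteins with a large outer part, made on ribosomes at the endoplasmic reticulum and carried in neurons along axons and dendrites. The beta-secretase BACE1 or an alpha-secretase, of which ADAM10 is the main one in neurons, removes the outer part. The gamma-secretase then cuts the remaining stub within the membrane. It holds a presenilin, such as PSEN2, as its catalytic subunit and nicastrin (Ncstn), APH1 and PEN2 as partners. Cutting of APP by BACE1 and gamma-secretase releases the amyloid-beta peptide of Alzheimer plaques. App mRNA is a known target of FMRP, the RNA-binding protein lost in fragile X syndrome.

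Brains of 5-day-old C57BL/6 mice (WT) and of FMR1 KO mice (FMR1 -/y in the study's methods) were used. Each preparation used 10 pooled brains, so a library is not a single animal. The homogenate was run on a sucrose gradient. The pellet holds clusters of compacted ribosomes (the RNA granule fraction), and fraction 5/6 holds clusters that do not pellet (polysomes). RPFs came from both, and RNA was sequenced from whole brain. In a standard preparation (10 mM MgCl2, RNase I scaled to the amount of RNA, room temperature) and in a low nuclease preparation (2.5 mM MgCl2, digestion in the cold), each genotype had 3 libraries of each kind. This gave 12 groups and 36 libraries. The labels do not say that replicates came from separate litters, so p-values measure the spread between these preparations. By the study's methods, the 3 replicates of an RPF group got different linkers and were pooled before reverse transcription, depletion of ribosomal RNA and PCR. Differences between such pools go with the group and are not in the p-values. In bulk samples, fewer cells of a type and less RNA per cell cannot be told apart.

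The standard RPF libraries held 6765065 to 40174168 counts, the low nuclease RPF libraries 23634940 to 62310787 and the RNA libraries 41586791 to 147216378. Cdk8 alone took 36.7 to 63.4% of the counts of the standard RPF libraries, so levels are given as CPM, counts scaled to a common library total, with Cdk8 left out of that total. In 3 RNA libraries of the low nuclease preparation, namely the second WT one and the FMR1 KO ones numbered 2 and 3, the top 10 genes held 82.4 to 85.0% of counts, against 3.66 to 7.16% in the other RNA libraries. Results that rest on them are given with and without them. Fmr1 stood between 12.3 and 116 CPM in 17 of the 18 WT libraries and between 1.92 and 18.1 in the FMR1 KO libraries. The library labelled WT fraction 5/6 standard replicate 3 had 3.17 CPM, which goes against its label, so some results that rest on it, but not all, are also given without it. All 6 neuron markers were detected in the standard RPF libraries, with a summed level of 5324 to 11313 CPM. All 6 markers of the oligodendrocyte lineage were also detected, and their summed level was 439 to 809 CPM in standard RNA and 82.3 to 169 in standard RPFs. All 5 markers of red blood cells were detected too, at 235 to 551 CPM summed in standard RNA and 4.15 to 19.2 in standard RPFs. The part of either cell type in the ratios of RPFs to RNA was not tested.

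The footprints of App and Aplp1 formed peaks, that is, short stretches that the authors called from the RPF coverage of 1 library, in the 12 standard RPF libraries. App, on the minus strand of chromosome 16 (chr16:84949685-85173766, GRCm38, ENSMUSG00000022892), had 34 peaks in 7 libraries. Aplp1, on the minus strand of chromosome 7 (chr7:30434982-30445535, ENSMUSG00000006651), had 13 peaks in 7 libraries. All 47 lay in coding sequence. The peaks of App were on its transcript ENSMUST00000227021 (3264 nt, coding sequence at 182 to 2383), which is not the transcript that the count table gives for App. Those of Aplp1 were on the table's own transcript, ENSMUST00000006828.

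No position of either gene held a peak in all 12 libraries or in all 6 pellet libraries, and 4 positions held one in 2 libraries, taking zeniths within 6 nt as the same. These 4 are the positions of the 2 genes where called peaks of 2 libraries lay together. Whether more of them did so than by chance was not tested. The 25 nt around each zenith are printed as the mRNA reads, from the GRCm38 reference. Capitals mark TGGA or AGGA, the 4-letter strings described in mRNAs that FMRP binds. They were searched on the mRNA strand only, and a match is not a binding site.
Aplp1, codon 261, exon 6, chr7:30442239-30442263: ttcgtagagccccctcaggctgaag
Aplp1, codon 618, exon 16, chr7:30435478-30435502: gggactatcagccaTGGAgtggtgg
App, codon 210, exon 5, chr16:85079861-85079885: ctgatgtctggtggggTGGAgcgga
App, codon 579, exon 13, chr16:84978169-84978193: atgccttcgctgacggaaaccaaga

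The Aplp1 window at codon 261 held a peak in WT pellet replicate 3 and FMR1 KO pellet replicate 3, and that at codon 618 in WT pellet replicate 1 and FMR1 KO pellet replicate 1. The App window at codon 210 held one in WT pellet replicate 3 and FMR1 KO pellet replicate 1. The App window at codon 579 held one in FMR1 KO pellet replicate 2 and in the library labelled WT fraction 5/6 replicate 3. Each of these 4 positions was thus shared by both genotypes as labelled, in 1 library of each. The number of such positions was 2 with zeniths matched within 3 nt and 7 within 12 nt.

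Another window is shown because it lies over the codons where BACE1 cuts APP, a placement that rests on knowledge of the protein and was chosen after the peaks had been seen. It held the highest App peak of all, in FMR1 KO pellet replicate 1, at 1.2 times the median peak height of that library.
App, codon 635, exon 14, chr16:84965707-84965731: aagtgaagaTGGAtgcagaattcgg
WT pellet replicate 1 had a peak nearby, with its zenith at position 2095 of the transcript against 2085, at 0.067 times its library's median height, which the 6 nt limit keeps apart. The peak of WT pellet replicate 3 nearest to them had its zenith at 2064, and its interval, 2045 to 2083, overlapped the start of the window shown.

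App had 5, 1 and 17 peaks in the 3 WT pellet libraries and 3, 1 and 4 in the 3 FMR1 KO pellet libraries. In fraction 5/6 it had 3, all in the library labelled WT replicate 3, and none in the other 5 libraries. The library with 17 App peaks, WT pellet replicate 3, was also the one with most App counts, 3781 against 1158 to 2533 in the other pellet libraries. Aplp1 had 1, 0 and 3 peaks in WT pellets, 3, 0 and 3 in FMR1 KO pellets, 1, 0 and 1 in WT fraction 5/6 and 0, 0 and 1 in FMR1 KO fraction 5/6. Most of these peaks were not high ones of their libraries: App peaks reached at most 1.2 times and Aplp1 peaks at most 1.29 times the library's median height, and the medians were 0.793 and 0.571. The file lists 2 App peaks with a height of 0, at codon 172 in FMR1 KO pellet replicate 3 and at codon 567 in the library labelled WT fraction 5/6 replicate 3.

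Aplp2, Bace1, Adam10, Psen2 and Ncstn had no peak in any of the 12 libraries. Of all protein-coding genes of the table, 35.2% had a peak in a pellet library. Counts over the 6 pellet libraries were low for Psen2 (127), Bace1 (440), Adam10 (862) and Ncstn (1027), and of the genes with at least the counts of Psen2 and Ncstn, 47.9 and 70.9% had a pellet peak. Aplp2 had 4291 counts over the 6 pellet libraries, more than the 3270 of Aplp1, and 84.0% of the 2832 genes with at least as many counts had a pellet peak. Each of these sets runs up to the highest counts, with the named gene at its bottom, so genes of like counts were not compared. TGGA or AGGA occurred in 10 of 34 App windows (29.4%) and 7 of 13 Aplp1 windows (53.8%). It occurred in 35.5% of the 25-nt windows around all peaks of the 12 libraries and in 25.8% of adjoining windows of that length along the same transcripts. App thus lay between those shares and Aplp1 above both, over few windows. Codons that begin with GA made up 17.6% of the 244 codons in App windows and 18.4% of all its codons on that transcript. In Aplp1 they made up 20.5% of the 83 codons in windows and 14.5% of all.

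**Figure D1:**
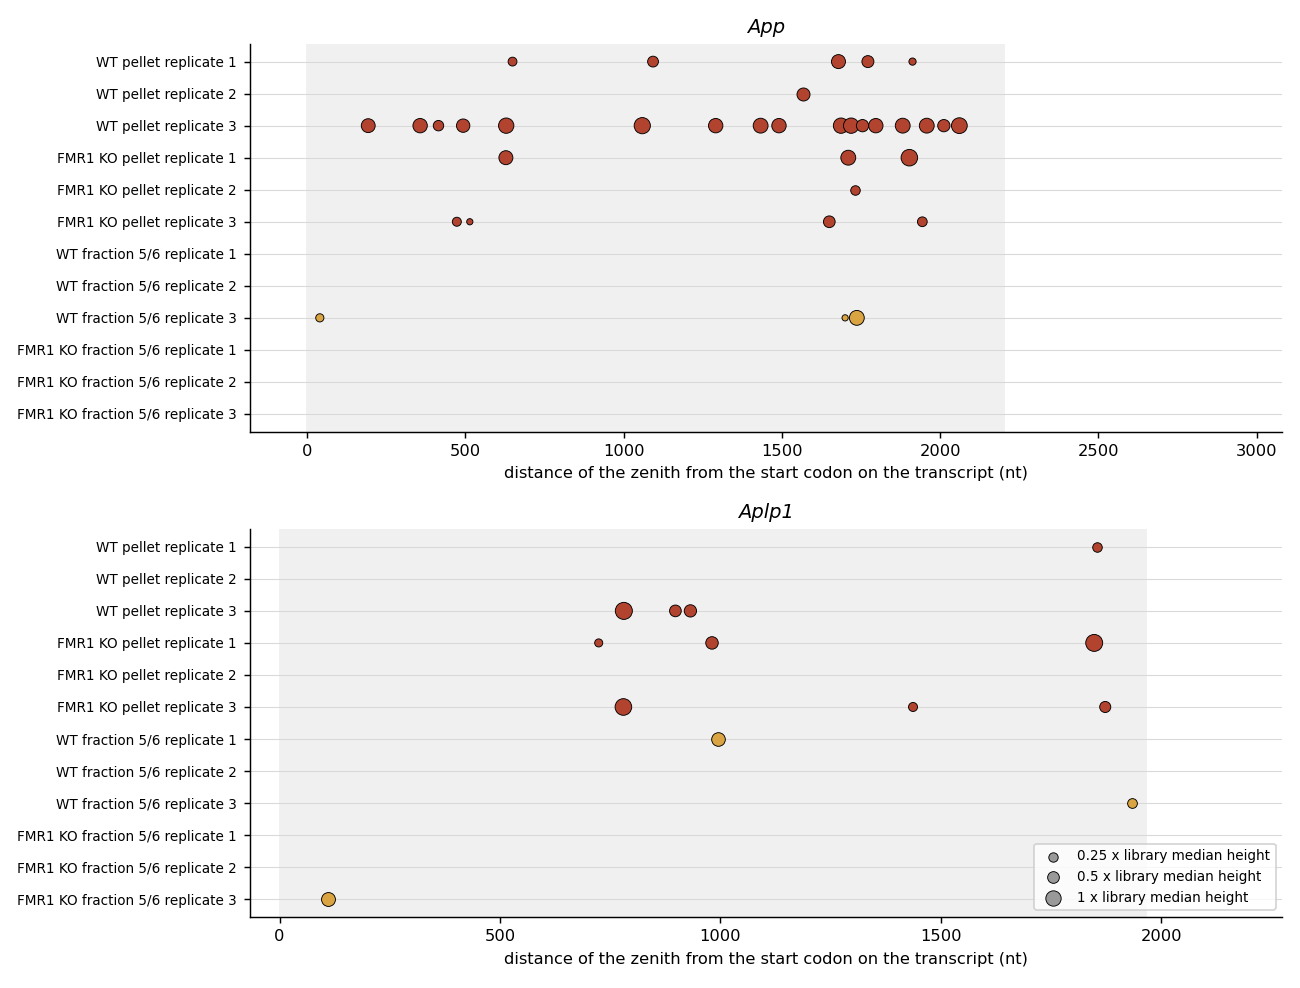
Peaks of App and Aplp1 in each of the 12 standard RPF libraries, with the distance of the zenith from the start codon in nt on the horizontal axis and 1 line per library, the coding sequence shaded. Each dot is 1 peak, its size the height relative to the library's median peak, and WT pellet replicate 3 holds 17 of the 34 App peaks.

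App had 102, 98.1 and 317 CPM in the 3 standard WT pellet libraries and 164, 92.4 and 162 in the FMR1 KO pellet libraries. In standard fraction 5/6 it had 52.6, 62.1 and 154 CPM in WT and 51.1, 79.1 and 108 in FMR1 KO. In standard whole-brain RNA it had 78.9, 76.7 and 84.5 CPM in WT and 79.1, 65.3 and 74.6 in FMR1 KO. All 6 pellet libraries thus lay above all 6 RNA libraries, while those of fraction 5/6 fell on both sides of RNA. WT pellet replicate 3 stood at over 3 times the level of the other WT pellet libraries, and the RNA libraries lay close together.

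Aplp2 (minus strand, chr9:31149557-31211815, ENSMUSG00000031996) followed App at a lower level. It had 36.8, 35.9 and 82.9 CPM in standard WT pellets and 63.3, 31.0 and 57.3 in FMR1 KO pellets. Fraction 5/6 gave 15.7, 16.6 and 58.0 CPM in WT and 15.7, 27.9 and 29.9 in FMR1 KO. RNA gave 27.9, 23.9 and 28.0 CPM in WT and 25.2, 24.3 and 24 in FMR1 KO. Again every standard pellet library was above every standard RNA library, and WT pellet replicate 3 was the highest.

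Aplp1, whose protein is found in neurons and is not known to give amyloid-beta, did not share this pattern. Its standard pellet levels were 30.3, 30.3 and 64.3 CPM in WT and 42.0, 18.8 and 48.4 in FMR1 KO. Fraction 5/6 held 24.3, 15.1 and 46.2 CPM in WT and 27.2, 30.2 and 61.2 in FMR1 KO. RNA held 81.2, 89.6 and 98.0 CPM in WT and 101, 64.4 and 102 in FMR1 KO. On this scale the standard pellet libraries lay below the standard RNA libraries, WT pellet replicate 3 only just, and the fraction 5/6 libraries did too.

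Bace1 (plus strand, chr9:45838580-45864399, ENSMUSG00000032086), the beta-secretase, showed the widest gap between footprints and RNA in the standard preparation. It had 4.28, 4.99 and 7.72 CPM in standard WT pellets and 5.97, 2.63 and 5.69 in FMR1 KO pellets. Fraction 5/6 had 4.21, 2.50 and 5.94 CPM in WT and 3.92, 4.47 and 9.57 in FMR1 KO. RNA had 93.1, 96.0 and 97.5 CPM in WT and 102, 100.2 and 110 in FMR1 KO. No standard RPF library reached 10 CPM, and no standard RNA library was under 93.1. In the low nuclease preparation Bace1 had 24.5 to 50.2 CPM in pellets, 21.3 to 49.7 in fraction 5/6 and 144 to 198 in RNA without the 3 libraries dominated by 10 genes, so that RNA was again above all RPFs. Those 3 had 11.2 to 23.9.

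Adam10 (plus strand, chr9:70678997-70780229, ENSMUSG00000054693), the alpha-secretase, had 8.74, 6.46 and 16.7 CPM in standard WT pellets and 14.0, 5.58 and 8.97 in FMR1 KO pellets. Fraction 5/6 had 5.96, 2.61 and 9.92 in WT and 5.47, 5.53 and 10.3 in FMR1 KO, and RNA had 31.2, 21 and 25.4 in WT and 22.7, 25.8 and 23.5 in FMR1 KO. All standard RPF libraries were below all standard RNA libraries in CPM, and low nuclease RPFs (at most 42.6, in a pellet) were below low nuclease RNA (42.8 to 61.7) without the 3 libraries dominated by 10 genes, which had 5.85 to 20.8. Of the gamma-secretase genes, Ncstn (minus strand, chr1:172066013-172082795, ENSMUSG00000003458) had 8.74, 11.9 and 16.2 CPM in standard WT pellets, 15.0, 7.10 and 14.5 in FMR1 KO pellets, and 14.4 to 18.2 in RNA, so that pellet and RNA overlapped. Psen2 (minus strand, chr1:180227004-180263438, ENSMUSG00000010609) was the lowest, at 0.957 to 2.35 CPM in standard pellets, 0.910 to 2.57 in fraction 5/6 and 2.39 to 3.49 in RNA. Its counts in the standard RPF libraries were as low as 9, so small changes of Psen2 were not detectable at this depth.

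**Figure D2:**
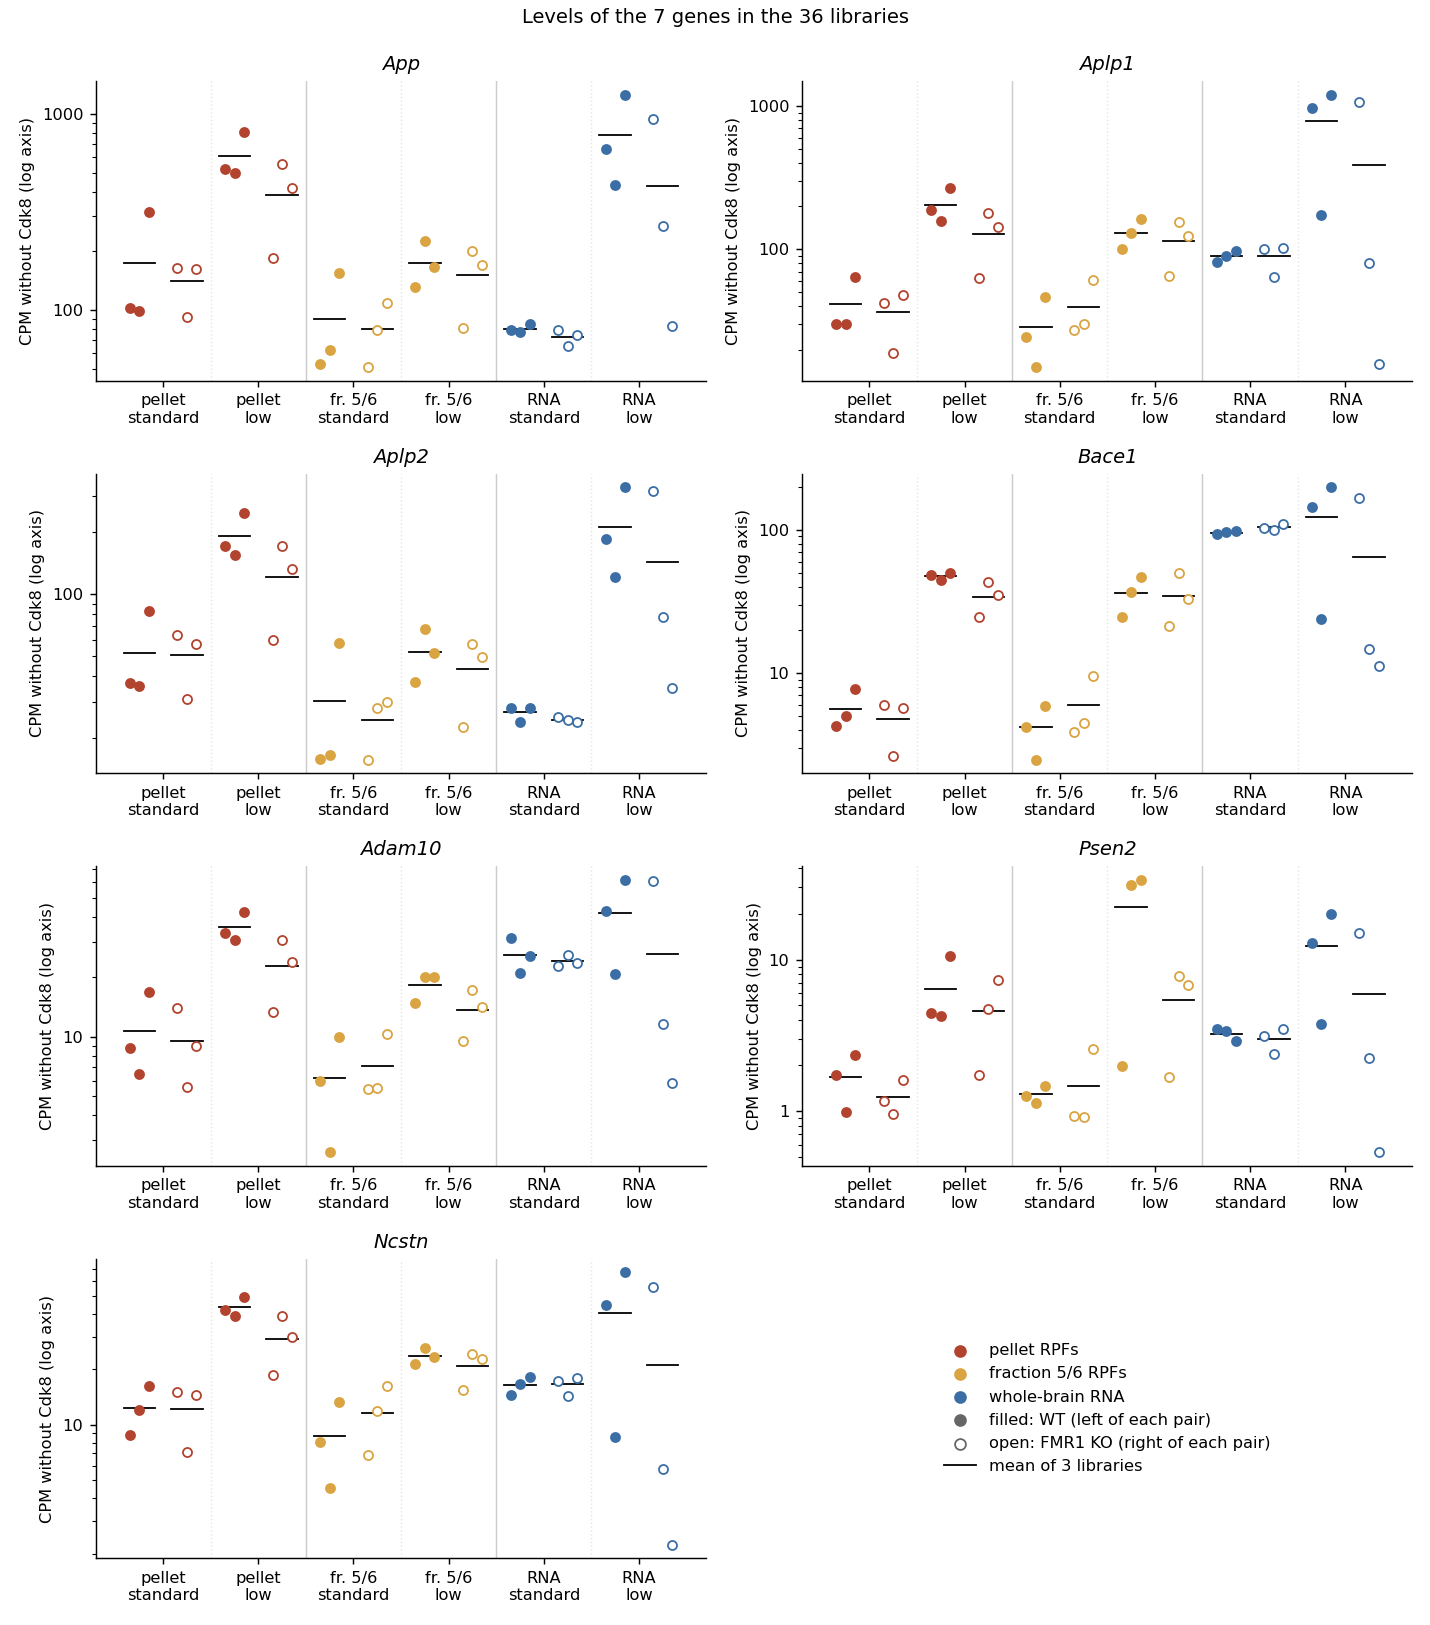
Level of each of the 7 genes in all 36 libraries, in CPM without Cdk8 on a log axis, by kind of library and preparation, with WT filled and FMR1 KO open. Each point is 1 library and each bar the mean of 3, and App and Aplp2 lie higher in standard pellets than in standard RNA while Bace1 lies lower.

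Levels can be compared between genes only per length, here per kilobase of coding sequence for RPFs and of transcript for RNA. Over the 6 standard pellet libraries, App had a mean of 69.2 CPM per kilobase, Aplp2 22.7, Aplp1 19.9, Ncstn 5.76, Adam10 4.48, Bace1 3.46 and Psen2 1.09. In standard RNA the order was another: Aplp1 38.2, App 24.5, Bace1 16.5, Aplp2 7.03, Ncstn 5.69, Adam10 5.43 and Psen2 2.12. Bace1 ranked 3 of 7 in RNA and 6 of 7 in the pellet, while Aplp2 ranked 4 in RNA and 2 in the pellet. Across the 12 groups ordered by mean CPM, the libraries of neighbouring groups overlapped in 11 of 11 pairs of neighbours for App, Aplp2, Adam10 and Ncstn, in 10 for Aplp1 and Psen2 and in 9 for Bace1.

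Ratios of 2 genes within a library do not depend on how libraries are scaled. App had 2.36 to 3.83 times the counts of Aplp2 in each of the 36 libraries, with a mean of 3.17 ± 0.362 (SD, n = 36). The ratio of App to Aplp1 was 3.23 to 4.93 in standard pellets, 1.77 to 4.11 in standard fraction 5/6 and 0.729 to 1.01 in standard RNA. In the standard preparation App and Aplp2 thus moved together from RNA to footprints, and Aplp1 did not move with them. In low nuclease RNA the ratio of App to Aplp1 was 0.683, 0.878 and 1.04 in 3 libraries, near standard RNA and below every low nuclease pellet, and 2.51 to 5.15 in the 3 dominated by 10 genes.

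The ratio of App to its beta-secretase Bace1 also differed between RNA and footprints in the standard preparation. It was 19.7 to 41.1 in standard pellets, 11.3 to 26 in standard fraction 5/6 and 0.651 to 0.866 in standard RNA, with no overlap between RPFs and RNA. That of Aplp2 to Bace1 was 7.20 to 11.8 in standard pellets and 0.218 to 0.299 in standard RNA. Adam10 had 1.3 to 2.35 times the counts of Bace1 in standard pellets and 0.214 to 0.335 times in standard RNA. In standard RNA Bace1 therefore had more counts than App or Adam10, and in standard pellets fewer. In the low nuclease preparation App to Bace1 was 7.52 to 16.1 in pellets and 3.50 to 6.14 in fraction 5/6. In RNA it was 4.60, 5.63 and 6.33 in 3 libraries, below every pellet, and 7.34 to 18.1 in the 3 dominated by 10 genes, so App had more counts than Bace1 in all 6. Adam10 to Bace1 was 0.547 to 0.849 in low nuclease pellets, so Bace1 had more counts than Adam10 there. It was 0.297 to 0.363 in the former 3 RNA libraries, again below every pellet, and 0.523 to 0.871 in the latter 3. Bace1 has the longest transcript of the 7 (6058 nt, of which 1506 are coding). Values that take length into account are given with the occupancy.

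**Figure D3:**
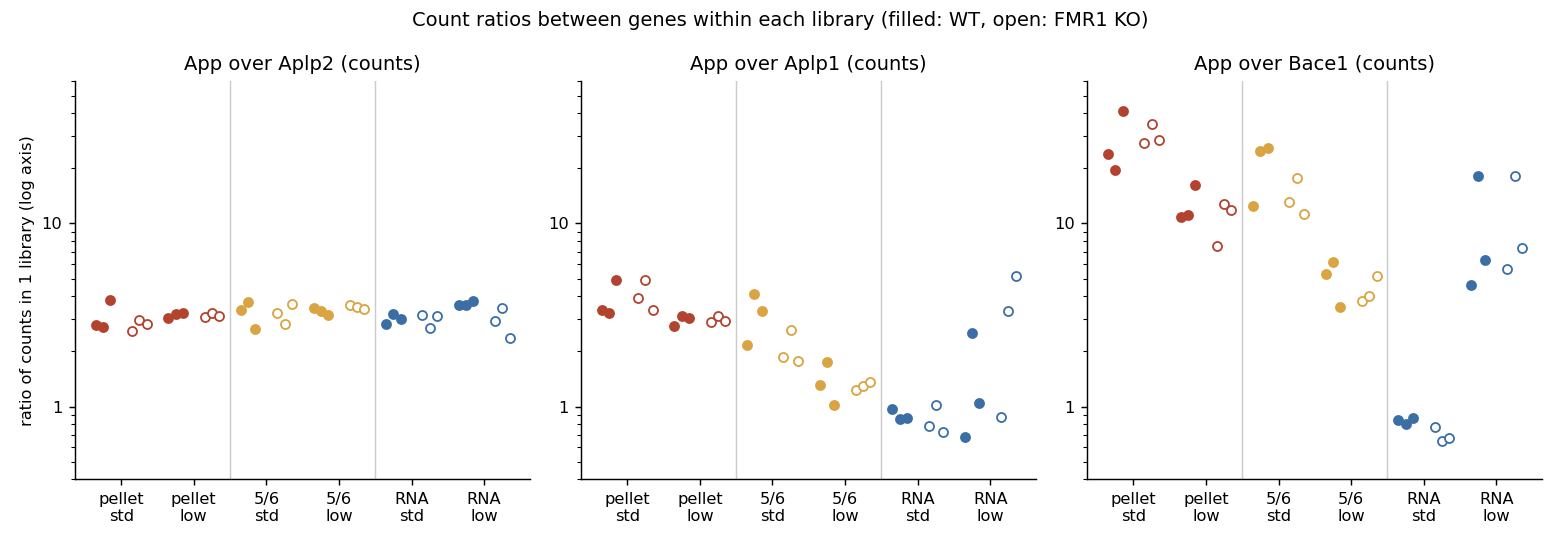
Ratio of the counts of App to those of Aplp2, Aplp1 and Bace1 within each library, on a log axis, by kind of library and preparation (std, standard), with WT filled and FMR1 KO open. Each point is 1 library, and App over Aplp2 stays between 2.36 and 3.83 throughout while App over Bace1 falls below 1 in all 6 standard RNA libraries.

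Occupancy, the pellet RPFs relative to RNA, was tested with edgeR on counts with TMM scaling and Benjamini-Hochberg adjustment over all genes. In WT, 65.5% of 16146 genes were called at 0.05 (31.2% higher, 34.3% lower), so a call alone sets no gene apart, and 4 of the 7 genes were called. App was 4.96-fold higher in the pellet (log2 2.31 ± 0.50 SE, adjusted p = 0.0046) and Aplp2 4.44-fold higher (2.15 ± 0.37, adjusted p = 0.0015). Bace1 was 7.57-fold lower (-2.92 ± 0.25, adjusted p = 4.1e-05). Ncstn was higher (0.74 ± 0.24, adjusted p = 0.029), although its CPM in pellet and RNA overlapped. App stood at the 96.1 percentile of all genes tested.

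Aplp1 (0.08), Adam10 (-0.10) and Psen2 (0.24) did not pass the test in WT occupancy, which does not show that they are equal. Their CPM were lower in the pellet than in RNA, and TMM scaling raised them: with library size without Cdk8 as the scale, the median of all genes moved from -0.11 to -1.26. On that scale App (1.11) and Aplp2 (0.96) stayed above 0 and called, Bace1 stayed below (-4.09), and Ncstn turned to -0.43 without a call. On that scale Aplp1 (-1.11, adjusted p = 0.0081), Adam10 (-1.29, adjusted p = 0.0069) and Psen2 (-0.94, adjusted p = 0.026) were called lower, so that 6 of the 7 were called. Of all genes, 8.70% were called higher and 67.9% lower on it, so these calls set no gene apart. Aplp1 also lost its direction without WT pellet replicate 3, at -0.45 (adjusted p = 0.014), and App was then at 1.43 and Aplp2 at 1.56, both still called. Adam10 was then called lower (-0.63, adjusted p = 0.048), and the call of Ncstn was lost without any 1 of the 3 WT RNA libraries, at an adjusted p of 0.053 to 0.090.

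In FMR1 KO, with 67.1% of 16113 genes called (31.9% higher, 35.2% lower), the same 4 genes were called in the same directions. App was at 2.02 ± 0.12 (adjusted p = 1.9e-05), Aplp2 at 2.12 ± 0.14 (adjusted p = 2.6e-05), Ncstn at 0.64 ± 0.17 (adjusted p = 0.013) and Bace1 at -3.37 ± 0.17, a 10.4-fold lower level. These were independent libraries from those of WT. Under library size Ncstn again turned, to -0.44, and Aplp1 (-1.29), Adam10 (-1.33) and Psen2 (-1.28) were called lower, where 62.4% of all genes were. In the TMM fit the call of Ncstn was lost without FMR1 KO pellet replicate 1 or 3 (adjusted p of 0.089 and 0.068). Without FMR1 KO pellet replicate 1, Adam10 was called lower (-0.64, adjusted p = 0.011).

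When RPFs were set per coding length and RNA per transcript length, less the median of all genes, App stood at 1.93 and Aplp2 at 1.99 in WT. Bace1 then stood at -1.76, at the 12.8 percentile of 15953 genes, against -2.81 when length was left out. Aplp1 stood at -0.51, Psen2 at -0.47, Ncstn at 0.34 and Adam10 at 0.08. In FMR1 KO, App stood at 1.61, Aplp2 at 1.93 and Bace1 at -2.25.

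Fraction 5/6 relative to RNA showed smaller values for App and Aplp2 and like ones for Bace1. In WT, 55.9% of 16152 genes were called (24.7% higher, 31.3% lower). App was called higher (1.27 ± 0.38, adjusted p = 0.027), Bace1 lower (-3.42 ± 0.21, adjusted p = 7.6e-05) and Adam10 lower (-1.01 ± 0.34, adjusted p = 0.042), and Aplp2 did not pass (1.26 ± 0.46, adjusted p = 0.055). Without the library labelled WT replicate 3, App was at 0.85 (adjusted p = 0.016) and Aplp2 at 0.58 (adjusted p = 0.040), and Aplp1 was called lower (-0.93, adjusted p = 0.0010). Without any 1 of the 3 WT RNA libraries only Bace1 was called. In FMR1 KO, with 62.9% of 16127 genes called (29.8% higher, 33.1% lower), App (0.99 ± 0.14), Aplp2 (0.90 ± 0.17), Bace1 (-3.32 ± 0.16) and Adam10 (-0.91 ± 0.15) were called. In 1 fit of all standard groups only Bace1 was called in FMR1 KO, with adjusted p of 0.057 for App, 0.077 for Aplp2 and 0.054 for Adam10. In WT that fit called Aplp2 (adjusted p = 0.0097) and not Adam10 (adjusted p = 0.058). The low footprint level of Bace1 was thus found in both gradient fractions. The fractions share their RNA libraries here, so these values are not independent of those for the pellet.

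Under library size without Cdk8, App and Aplp2 were not called higher in fraction 5/6 in either genotype, with values of 0.16 and 0.12 for App and 0.18 and -0.0067 for Aplp2 in WT and FMR1 KO, so their calls there hold relative to other genes and not on that scale.

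**Figure D4:**
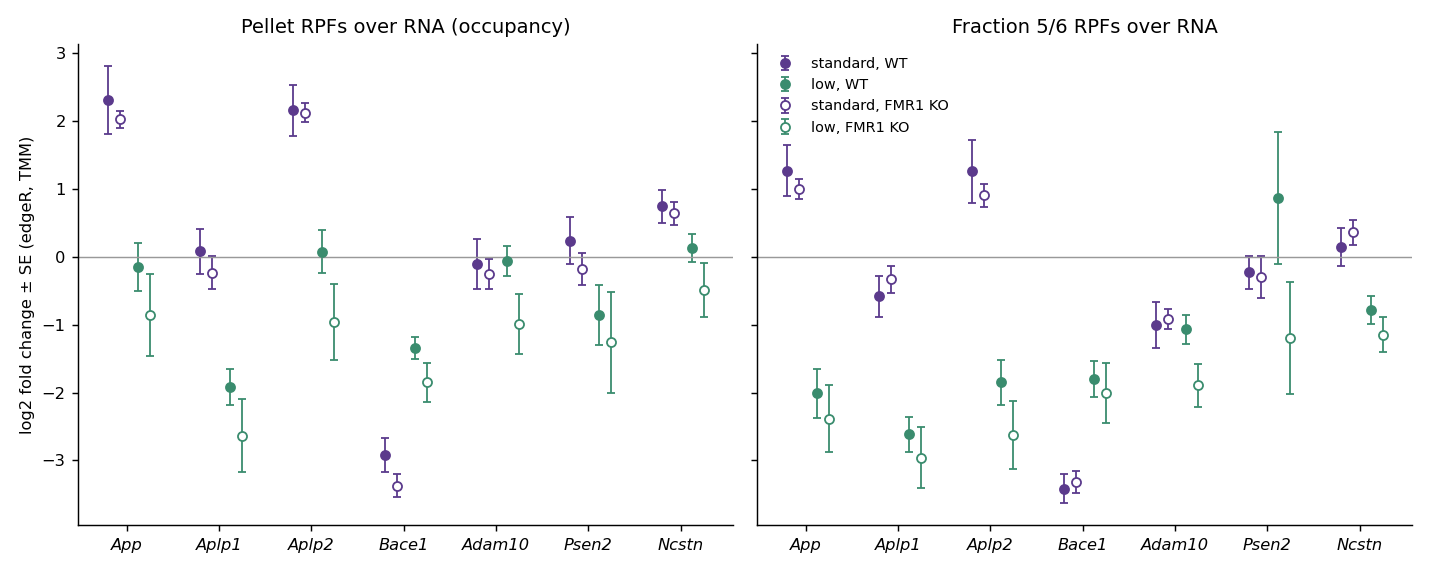
Log2 fold change with its SE of pellet RPFs (left, occupancy) and fraction 5/6 RPFs (right) over whole-brain RNA for the 7 genes, in WT (filled) and FMR1 KO (open), in the standard preparation and in the low nuclease one without the 3 RNA libraries dominated by 10 genes. App and Aplp2 stand above 2 in the left panel in the standard preparation in both genotypes, and Bace1 stands below 0 in both panels and both preparations.

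Enrichment, the pellet RPFs relative to those of fraction 5/6, asks whether the footprints of a gene favour the pellet. The study saw ribophorin, a marker of rough endoplasmic reticulum, in the pellet and not in fraction 5/6. It names other transported structures that sediment as a possible source of RNA differences between the fractions. Their part in these values was not tested. In FMR1 KO, 11.5% of 13241 genes were called and 9.11% were called higher. Aplp2 was 2.51-fold higher in the pellet (1.33 ± 0.22, adjusted p = 0.015), and its 3 pellet libraries lay above its 3 fraction 5/6 libraries. App was 2.19-fold higher (1.13 ± 0.18, adjusted p = 0.011), with 1 pellet library (92.4 CPM) below the highest of fraction 5/6 (108). Adam10 (0.76, adjusted p = 0.12), Ncstn, Psen2, Aplp1 and Bace1 did not pass.

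These 2 calls were not stable. Under library size without Cdk8 App was at 0.81 (adjusted p = 0.28) and Aplp2 at 1.05 (adjusted p = 0.20). In 1 fit of all standard groups the adjusted p was 0.091 for App and 0.053 for Aplp2. Both were lost without replicate 1 or without replicate 3, and Aplp2 was also lost when FMR1 KO pellet or fraction 5/6 replicate 1 or 3 alone was left out.

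In WT only 3 of 13069 genes (0.023%) were called by edgeR and 90 by DESeq2. None of the 7 genes was among them by either tool, and none had an unadjusted p under 0.05. All 7 fold changes were above 0, from 0.42 ± 0.41 for Psen2 to 1.00 ± 0.65 for App (adjusted p = 0.64). App was at 0.12 without WT pellet replicate 3 and at 1.50 (adjusted p = 0.24) without the library labelled WT fraction 5/6 replicate 3, so single libraries set this value.

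**Figure D5:**
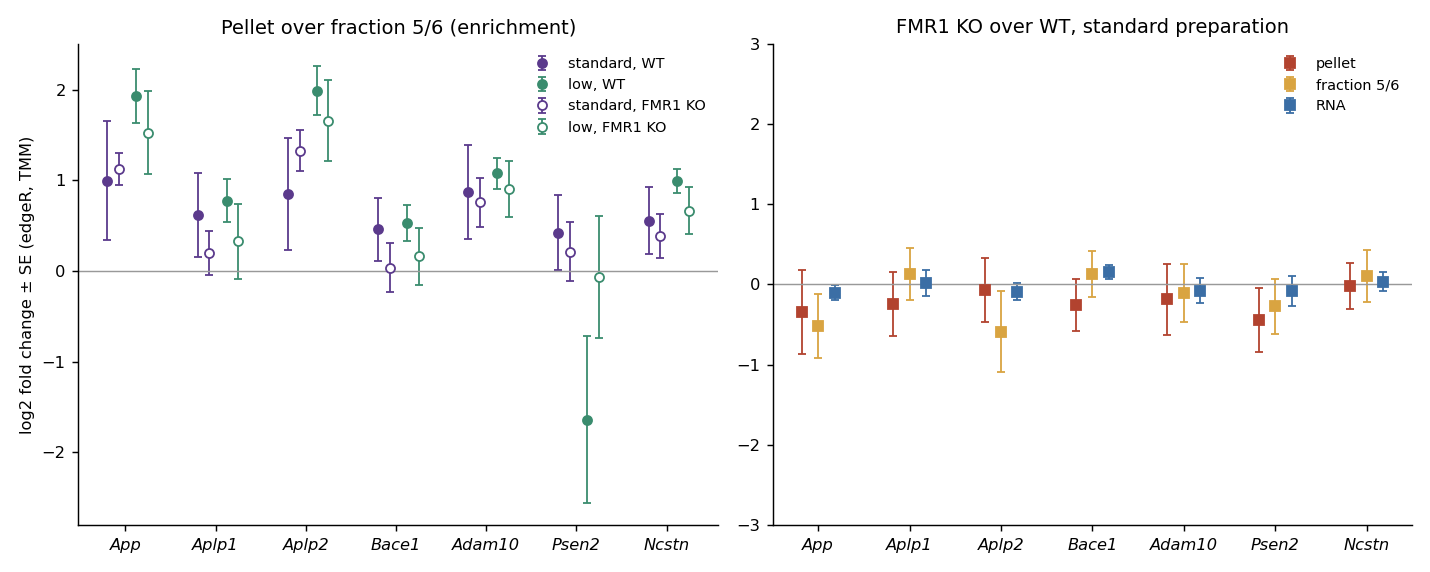
Log2 fold change with its SE for the 7 genes: on the left, enrichment (pellet over fraction 5/6) in each genotype and preparation, and on the right, FMR1 KO over WT in the pellet, fraction 5/6 and RNA of the standard preparation. Enrichment lies above 0 in the standard preparation, called for App and Aplp2 in FMR1 KO, low nuclease Psen2 lies below 0, and no value on the right was called.

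FMR1 KO and WT were compared to ask whether loss of FMRP moves these genes. Fmr1 itself fell by 3.72 on the log2 scale in the pellet (adjusted p = 0.0051) and fell by 1.90 in RNA (adjusted p = 3.6e-05). It was at -3.27 ± 1.08 and was not called in fraction 5/6 (adjusted p = 0.83), where the library labelled WT replicate 3 had 3.17 CPM of it. None of the 7 genes was called by edgeR or DESeq2 in the pellet (0.015% of all genes called by edgeR), in fraction 5/6 (0%), in RNA (0.0736%) or in the tests of a genotype difference in occupancy (0.0673%) and enrichment (0%). None of the 7 had an unadjusted p under 0.05 in any of these, and the smallest was 0.102, for Bace1 in RNA. In fraction 5/6 and in the enrichment test, where edgeR called no gene of the table, 590 and 770 genes had an unadjusted p under 0.05. In the low nuclease preparation none of the 7 was called or had an unadjusted p under 0.05 either, with 0.0197% of all genes called in the pellet, 0.0445% in fraction 5/6, 0% in RNA, 0.0187% in occupancy and 0.0126% in enrichment. Without the 3 RNA libraries the shares were 0.215% in RNA and 0.00611% in occupancy.

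In the pellet App was at -0.34 ± 0.52, Aplp1 at -0.25 ± 0.40, Aplp2 at -0.07 ± 0.40 and Bace1 at -0.26 ± 0.33. When WT pellet replicate 3 was left out, 6 of the 7 genes, all but Psen2, turned above 0 without a call, App to 0.54 and Aplp2 to 0.52. RNA was measured more closely: App was at -0.11 ± 0.09, Aplp2 at -0.09 ± 0.10 and Bace1 at 0.15 ± 0.08. In fraction 5/6 App was at -0.52 ± 0.40 and Aplp2 at -0.59 ± 0.50. Without the library labelled WT fraction 5/6 replicate 3 they were at -0.03 and 0.16. The genotype difference in occupancy was -0.25 ± 0.56 for App and 0.01 ± 0.43 for Aplp2. Leaving out replicates or single libraries moved it between -0.55 and 0.59 for App and between -0.36 and 0.56 for Aplp2, the highest of each without WT pellet replicate 3, and 5 of the 7 genes were then above 0 instead of 1.

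In the low nuclease preparation RPF levels of App were 522, 496 and 810 CPM in WT pellets and 184, 554 and 417 in FMR1 KO pellets. In fraction 5/6 they were 130, 226 and 164 in WT and 80.6, 199 and 169 in FMR1 KO. RNA ranged more: 662, 433 and 1253 CPM in WT and 941, 268 and 82.2 in FMR1 KO, where the 433, 268 and 82.2 belong to the 3 libraries dominated by 10 genes. App RNA in the other 3 libraries was thus far above the 65.3 to 84.5 of the standard preparation.

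Aplp1 RNA was 970 and 1202 CPM in WT and 1072 in FMR1 KO in those 3 libraries, against 64.4 to 102 in the standard preparation. Bace1 RNA was 144, 198 and 167 CPM in them, against 93.1 to 110. Psen2 stood out in 1 group: WT fraction 5/6 had 1.97, 31.1 and 33.7 CPM, so that replicates 2 and 3 were over 10 times replicate 1.

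All 7 genes had lower RNA in the standard than in the low nuclease preparation (47.3% of all genes called, 26.5% lower), tested over both genotypes. App was 23.3-fold lower (-4.54 ± 0.42), Aplp2 20.8-fold lower, Aplp1 11.2-fold lower and Psen2 6.09-fold lower, and Bace1 was the least changed, 1.77-fold lower. Without the 3 RNA libraries all 7 were still called, from -0.94 for Bace1 to -3.82 for App, with Aplp2 at -3.67 and Aplp1 at -3.77. Under library size without Cdk8, App (-2.92, adjusted p = 0.042) and Aplp2 (-2.78, adjusted p = 0.042) were still called, the other 5 were not, and Bace1 turned to 0.17. Of all genes, 0.397% were called lower and 1.64% higher on that scale. All 7 were also lower in standard pellets (53.7% called, 29.6% lower), from -0.97 for Adam10 to -2.45 for Bace1. In fraction 5/6 (42.6% called, 23% lower) 5 were called lower, and App (-0.37) and Aplp2 (-0.24) were not. Under library size, with 49.9% of all genes lower there, App was called too (-0.93, adjusted p = 0.033) and Aplp2 was not (-0.81, adjusted p = 0.079). Without the libraries of replicate 2, all 7 were still called in RNA, 3 in pellets and 1 in fraction 5/6, and without those of replicate 1, 3 were called in fraction 5/6. For RPFs, buffer and nuclease treatment cannot be told apart in this design. The study's methods describe RNase I for the pellet and fraction 5/6 and no such step for the RNA. Why RNA differed between the preparations was not tested.

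In the low nuclease preparation App and Aplp2 were not called higher in occupancy in either genotype. In WT (58.9% of genes called without the 3 RNA libraries, 52.4% with them), App was at -0.15 and Aplp2 at 0.07 without them and at -1.03 and -0.84 with them, none called. Bace1 was called lower either way (-1.34 and -1.42), as was Aplp1 (-1.91 and -2.05), and Psen2 was called only with them (-1.19, adjusted p = 0.046). In FMR1 KO, which then has 1 RNA library assumed to vary like the other groups (38.5% called, 28.8% with all libraries), App was at -0.86 without a call, Bace1 was called lower (-1.85, adjusted p = 0.019) and so was Aplp1 (-2.63, adjusted p = 0.030). With all libraries Bace1 was called (-1.43, adjusted p = 0.016) and Aplp1 was not (-1.83, adjusted p = 0.095). Relative to RNA, fraction 5/6 was lower for 6 of the 7 genes in WT with and without the 3 libraries (57.2 and 62% of all genes called), Psen2 being the exception, and in FMR1 KO for 4 and 6 of them (34.3 and 46.3% called). In the pellet, Bace1 was the gene of the 7 called in the same direction in both preparations and both genotypes. Bace1 and Adam10 were both called lower in fraction 5/6 in each of these.

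The difference in occupancy between preparations (40% of all genes called, 14.2% higher and 25.8% lower) was 3.25 ± 0.55 for App and 3.15 for Aplp2, and it was also called for Aplp1 (1.81) and, in the other direction, for Bace1 (-1.78). Without the 3 RNA libraries it was 2.58 for App, 2.49 for Aplp2, 2.11 for Aplp1 and -1.64 for Bace1, and Ncstn was then called too (0.77, adjusted p = 0.041). Under library size without Cdk8 only Bace1 was called, where 1.32% of all genes were higher and 37.9% lower. In the TMM fit Aplp1 was not called without the libraries of replicate 1 or 2 (adjusted p of 0.10 and 0.069). Enrichment uses no RNA library. In low nuclease WT (22.9% called), Aplp2 (1.99, adjusted p = 0.0096), App (1.93, adjusted p = 0.012), Adam10 (1.08, adjusted p = 0.013) and Ncstn (0.99, adjusted p = 0.0090) were higher in the pellet than in fraction 5/6. In low nuclease FMR1 KO (20.6% called), Aplp2 was called (1.66) and App was not (1.53, adjusted p = 0.065). The within-library ratio of App to Aplp1, free of scaling, was 2.76 to 3.13 in these pellets and 1.01 to 1.74 in this fraction 5/6.

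Other genes of the pathway, a list of 52 that leaves out the 7, were counted in the same fits of the standard preparation. In WT occupancy 18 were higher and 16 lower, where 31.2 and 34.3% of all genes were, with a median of 0.27 against -0.11 for all genes. Under library size without Cdk8, 6 were higher and 33 lower, where 8.70 and 67.9% of all genes were. The other subunits of gamma-secretase fell in 4 of 5 cases, and the largest falls of the list were Aph1a (-4.60, adjusted p = 2.3e-05) and Aph1b (-2.64, adjusted p = 7.3e-05), which are such subunits, and the membrane protease Mmp24 (-3.41, adjusted p = 6.5e-06). Only 2 of these 5 subunits passed the count filter in WT enrichment, which fits RPF libraries alone, so RPF counts of the rest were low. Of 19 other substrates of the secretases, 10 were higher and 4 lower (3 and 8 under library size), among them the adhesion molecule L1cam (2.45, adjusted p = 0.0012) and the Notch ligand Dner (2.32, adjusted p = 0.0011). The retromer subunit Vps35, which returns APP from endosomes, was also higher (2.35, adjusted p = 1.5e-05). Ncstn, raised in the edgeR fit, was thus unlike these 4 fellow subunits. Between preparations, all 19 other substrates were called lower in standard RNA, where 26.5% of all genes were. Under library size 5 of the 19 were, where 0.397% of all genes were. Their occupancy was higher in the standard preparation for 12 and lower for none, where 14.2 and 25.8% of all genes were. Under library size 1 was higher and 1 lower (1.32 and 37.9% of all genes). How far their standard occupancy rests on this lower RNA was not tested.

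In FMR1 KO occupancy, 23 of the 52 were higher and 16 lower, where 31.9 and 35.2% of all genes were, and under library size 6 were higher and 28 lower (7.83 and 62.4% of all genes). In FMR1 KO enrichment, 12 of 47 tested were higher and none lower, where 9.11% of all genes were higher. Of these 12, 11 were among the 19 other substrates, with a median of 1.13 against -0.04 for all genes. Under library size only 173 of the 13241 genes were called, 1.12% of all genes being higher, and 6 of the 47, all of them among the 19 substrates, were called higher. The 12 included Lrp1 (3.10), a large endocytic receptor that binds APP, L1cam (2.73) and Clstn3 (2.03), named after their values were seen and called on both scales. The calsyntenin Clstn3 and the substrates App and Aplp2 thus lay on the same side. In WT enrichment none of 47 was called by edgeR, with a median of 0.83 over the 19 substrates, and none of the list was called between FMR1 KO and WT.

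Among the genes whose log2 level ran most like App over the 36 libraries were, of 9470 with a mean of at least 10 CPM, Aplp2 (Pearson's r = 0.99), the chaperones Calr (0.96) and Canx (0.96) and the calsyntenin Clstn3 (0.96). Aplp1 ranked 163 (0.81), Ncstn 370 (0.73), Adam10 407 (0.71) and Bace1 1073 (0.44). These values describe libraries that share preparations and fractions. Within the 6 standard RNA libraries alone the order was another: r was 0.89 for Clstn3, 0.76 for Aplp1, 0.64 for Aplp2 and -0.27 for Bace1.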

How the data were processed

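The 24 RPF and 12 RNA libraries were processed by the authors, per the labels and the study's methods, with Cutadapt 2.10, Bowtie2 2.3.5 to remove ribosomal and non-coding RNA, STAR 2.7.8a on GRCm38, Picard and SAMtools 1.19.2 for duplicates, and featureCounts 2.2.0. The deposited values are whole-number counts per gene, not normalized. Peak heights were deposited as a coverage signal on transcripts, called per library and not scaled between libraries. The middle of a peak's interval was taken as its zenith, which may be off by 1 nt, since the files do not state how positions are counted. Sequences were read from the RefSeq GRCm38 genome, and GENCODE M21 gave biotypes, lengths and coordinates.

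The 7 genes, the gene lists and the comparisons were chosen with earlier results of these data known. Levels are CPM without Cdk8. Protein-coding genes were filtered with filterByExpr, scaled by TMM and tested with the two-sided quasi-likelihood test of edgeR 4.0.16 in R 4.3.3, each comparison fitted on its own groups, with Benjamini-Hochberg adjustment over all genes tested and a threshold of 0.05. Standard errors were derived from the F statistics. The fits were tested on simulated data. Alternatives were DESeq2 1.42.0, library size without Cdk8 as the scale, no filter, a replicate block, 1 fit of all standard groups, the low nuclease libraries, and leaving out each replicate. The comparisons between preparations, the settings without 3 RNA libraries, the per-length values and the pathway counts under library size were added after seeing the data. Genes named are the 7, Fmr1 and Cdk8, the 3 largest rises and falls of the pathway list in WT occupancy and enrichment, and the 5 genes most like App, of which 1 is not reported here. Exceptions are marked. Peaks and levels were handled with Python 3.11.15, pandas 2.3.3 and numpy 2.4.6.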

Additional observations from a re-analysis of the deposited data

Results flagged for a closer look

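The occupancy of 4 genes differed between the preparations by the edgeR interaction test with Benjamini-Hochberg adjustment, the comparison having been added after the levels had been seen. Of all genes, 40% were called in this test, 14.2% higher and 25.8% lower. The standard less the low nuclease preparation was 3.25 on the log2 scale for App, 3.15 for Aplp2, 1.81 for Aplp1 and -1.78 for Bace1. Without the 3 RNA libraries in which 10 genes took most counts, these were 2.58, 2.49, 2.11 and -1.64, and Ncstn was called as well (0.77, adjusted p = 0.041). Of the 4, only the value for Bace1 kept its call under library size without Cdk8 (-3.13, adjusted p = 0.0040), where 1.32% of all genes were called higher and 37.9% lower. Why the preparations differ was not tested, and for RPFs buffer and nuclease treatment cannot be told apart. The methods describe no nuclease step for the RNA.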

How the results depend on the processing

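No result of FMR1 KO over WT gained a member call under any setting. Over the 15 comparisons in all, DESeq2 made 4 calls of the 7 genes that edgeR did not. With library size without Cdk8 as the scale, the number of the 7 genes called was 6 for occupancy in each genotype, 5 for fraction 5/6 over RNA in WT, 0 for enrichment in FMR1 KO, 2 for RNA and 1 for occupancy between preparations. Of all genes, 12367 of 16146 were called in WT occupancy, 11310 of 16113 in FMR1 KO occupancy and 10537 of 16152 in WT fraction 5/6 over RNA. In FMR1 KO enrichment 173 of 13241 were, and between preparations 333 of 16372 in RNA and 6446 of 16418 in occupancy. Between preparations App was also called lower in fraction 5/6 (-0.93, adjusted p = 0.033), with 8168 of 15417 genes called. Values that turned and were called in either setting were, in WT occupancy, Aplp1 (-1.11), Psen2 (-0.94) and Ncstn (-0.43), in FMR1 KO occupancy Ncstn (-0.44), in fraction 5/6 over RNA Ncstn in WT (-0.92) and Aplp2 in FMR1 KO (-0.0067), and in RNA between preparations Bace1 (0.17). Another 11 turned without a call in either setting, among them Aplp1, Psen2 and Bace1 in FMR1 KO enrichment. One fit of all standard groups called 1 gene (Bace1) in fraction 5/6 over RNA and 0 in enrichment in FMR1 KO. Replicate numbers did not pair the samples (same-number correlations of -0.19 to 0.22 over 9 pairs of groups), and a replicate block called 0 of the 7 and 662 of all genes (1524 without it) in FMR1 KO enrichment and changed no other call of the 7. In 0 of the 9 pairs of groups did every sample correlate best with its own number.

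In the low nuclease libraries, 1 gene was called in FMR1 KO occupancy, 6 in fraction 5/6 over RNA in WT, 4 in WT enrichment and 1 in FMR1 KO enrichment. Without 3 RNA libraries, 2 were called in occupancy in each genotype and 6 in WT fraction 5/6 over RNA. Values that turned in the low nuclease libraries and were called in either preparation were, in WT occupancy, App (-1.03), Aplp1 (-2.05), Aplp2 (-0.84) and Psen2 (-1.19), in FMR1 KO occupancy App (-1.27), Aplp2 (-1.32) and Ncstn (-0.015), and in fraction 5/6 over RNA App (-2.88), Aplp2 (-2.75) and Ncstn (-0.89) in WT and App (-2.81) and Aplp2 (-2.98) in FMR1 KO. Without the 3 RNA libraries they were App (-0.15) and Aplp1 (-1.91) in WT occupancy, App (-0.86), Aplp2 (-0.96) and Ncstn (-0.49) in FMR1 KO occupancy, and in fraction 5/6 over RNA App (-2.01), Aplp2 (-1.85) and Ncstn (-0.79) in WT and App (-2.38), Aplp2 (-2.62) and Ncstn (-1.15) in FMR1 KO. Another 17 and 6 turned without a call, Psen2 in WT occupancy (-0.85) among the 6. The cause was not tested.

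Leaving out replicates or single libraries gave 3 to 6 genes called in WT occupancy, 3 to 4 in FMR1 KO occupancy, 1 to 5 and 4 to 5 in fraction 5/6 over RNA, 0 in WT enrichment, 0 to 2 in FMR1 KO enrichment, 0 in each test of genotype, and between preparations 3 to 6 in the pellet, 1 to 4 in fraction 5/6, 7 in RNA and 3 to 5 in occupancy. Aplp1 in WT occupancy ranged from -0.45 to 0.28. Positions with a peak in 2 libraries numbered 2 within 3 nt, 7 within 12 nt, 1 at or above the median height, 5 from interval starts, 2 on the table's transcripts and 1 to 3 without a replicate. TMM scaling moved 35 of 84 group mean levels beyond their SD and counting Cdk8 moved 16. Depth limits Psen2, Bace1 and Adam10 in the standard RPF libraries, with as few as 9, 22 and 23 counts.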
